A study of Mus musculus with 6 samples.

Results

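The insulin-like growth factor (IGF) genes described here were the ligand gene *Igf1*, the receptor genes *Igf1r* and *Insr*, and the binding protein genes *Igfbp2*, *Igfbp3*, *Igfbp4*, *Igfbp5*, *Igfbp6* and *Igfbp7*. They were taken by gene name, as 9 of the 46078 genes in the deposited count tables, and all 9 passed the filter on low counts that left 16813 genes for testing. Bulk RNA sequencing had been run on growth plate cartilage of the distal femur and proximal tibia of mouse embryos at E18.5, in 3 control and 3 Idh1 mutant libraries. Control embryos carried *Idh1* LSL/+, a mutant *Idh1* allele (R132Q) held silent by a lox-stop-lox cassette, without Cre. Mutant embryos carried the same allele together with Col2a1-Cre, and effects of the mutant enzyme and of the Cre transgene cannot be told apart here. Cre was driven by regulatory elements of *Col2a1*, the gene of the main cartilage collagen, while the RNA came from all cells of the dissected tissue. The text on animal care in the labels also mentions ageing to a postnatal age, and the embryonic age given for each sample was used. The labels number the libraries but name neither litters nor separate animals, so that p-values measure the spread between these libraries, part of which may be technical.

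IGF1 and IGF2 act through the IGF1 receptor, a tyrosine kinase close in structure to the insulin receptor encoded by *Insr*, with which it can form hybrid receptors. The binding proteins hold IGFs outside the cell and release them when proteases cut the binding protein. IGFBP7 differs from the other members in its low affinity for IGFs. In the growth plate, IGF signalling is known for its part in chondrocyte proliferation, in the enlargement of hypertrophic chondrocytes and in the lengthening of bones.

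The comparison asked whether the RNA of these genes differed between the genotypes in growth plate cartilage. Per exon length, the binding protein RNAs were abundant in every library, with *Igfbp7* and *Igfbp5* at the top, and the receptor RNAs were the lowest of the set. None of the 9 genes passed an adjusted p under 0.05, and their log2 fold changes (mutant minus control) lay between −0.21 and 0.09. The difference furthest from 0 was that of *Igfbp5*, at 1589 ± 132 CPM (counts scaled to the size of each library) in controls and 1377 ± 30.0 CPM in mutants (mean ± SD, n = 3 and 3), a fold of 0.867. *Igfbp6* varied most between mutant libraries.

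The stretch just before the transcription start is shown for the 6 genes in which a promoter motif defined below was found, because the binding protein genes differ there. RefSeq start sites (GRCm38.p6) were given for 8 of the 9 genes, *Insr* being without an entry. Each line holds 60 bases that end at the base before the start site, read 5′ to 3′ on the strand of the gene. Capitals mark a TATA-like hexamer or a GC box. The hexamer was either the letters TATAAA, or the variant TATATA that is found in some promoters, or the looser variant TATTTA, searched on the strand of the gene from −60 to −1. The GC box was GGGCGG on the strand of the gene, or CCGCCC as its reverse complement, searched in the 250 bases before the start.
*Igfbp3*, chr11:7213924-7213983, reverse strand: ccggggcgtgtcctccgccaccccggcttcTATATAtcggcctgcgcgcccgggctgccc
*Igfbp4*, chr11:99041184-99041243, forward strand: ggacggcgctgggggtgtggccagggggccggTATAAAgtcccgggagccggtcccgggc
*Igfbp5*, chr1:72874866-72874925, reverse strand: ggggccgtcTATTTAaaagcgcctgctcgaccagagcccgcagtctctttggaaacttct
*Igfbp7*, chr5:77408046-77408105, reverse strand: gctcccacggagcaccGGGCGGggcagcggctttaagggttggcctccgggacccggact
*Igf1r*, chr7:67952197-67952256, forward strand: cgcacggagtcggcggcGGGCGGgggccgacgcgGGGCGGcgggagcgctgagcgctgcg
*Igfbp2*, chr1:72824420-72824479, forward strand: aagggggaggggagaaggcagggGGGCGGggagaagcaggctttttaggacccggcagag

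Counted from the RefSeq start, the TATA-like letters began at −30 in *Igfbp3*, at −28 in *Igfbp4* and at −51 in *Igfbp5*. The annotation used for counting starts *Igfbp5* at 72874884, inside the printed stretch, and from there the letters lie closer to the start. The 2 annotations also start *Igf1*, *Igf1r*, *Igfbp2*, *Igfbp6* and *Igfbp7* at different bases. Only *Igfbp3* and *Igfbp4* start at the same base in both. Over all 32851 promoters in the same table, 5.35% held such a hexamer in the same window and 32.7% held a GC box. GC boxes numbered 4 before *Igfbp7*, 3 before the upstream start of *Igfbp2* and 2 before *Igf1r*. The hexamers and the GC boxes thus lay in different members of the family. CpG dinucleotides in the 250 bases before the start ranged from 5 in *Igf1* to 42 in *Igf1r*, with 32 in *Igfbp3* and 10 in *Igfbp5*, against a median of 6 over all promoters. No hexamer or GC box was found in these windows before the RefSeq starts of *Igf1* or *Igfbp6*. Windows before the starts used for counting were not searched. The motif letters and windows were chosen after the sequences had been seen, and a match describes the letters and not a binding site.

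Positions in the files were on GRCm38 and place 4 of the binding protein genes close to a relative. *Igfbp2* (ENSMUSG00000039323, chromosome 1 from 72824503 to 72852474, forward strand) and *Igfbp5* (ENSMUSG00000026185, chromosome 1 from 72857932 to 72874884, reverse strand) face each other with their 3′ ends, with 5457 bases and 0 genes between them. *Igfbp3* (ENSMUSG00000020427, chromosome 11 from 7206086 to 7213923, reverse strand) lies 3539 bases from *Igfbp1*, which held at most 0.17 CPM in any library and was not tested. *Igfbp4* (ENSMUSG00000017493) lies apart from that pair on chromosome 11, from 99041244 to 99054392 on the forward strand. *Igfbp6* (ENSMUSG00000023046) occupies chromosome 15 from 102144362 to 102149511 on the forward strand, and *Igfbp7* (ENSMUSG00000036256) chromosome 5 from 77349240 to 77408041 on the reverse strand. *Igf1* (ENSMUSG00000020053) runs from 87858265 to 87937042 on the forward strand of chromosome 10. *Igf1r* (ENSMUSG00000005533) runs from 67952859 to 68226780 on the forward strand of chromosome 7, and *Insr* (ENSMUSG00000005534) from 3150922 to 3279617 on the reverse strand of chromosome 8. Strand was ignored in the counting. *Igfbp7* shares 85 exonic bases with *Polr2b* on the opposite strand, and reads of either gene there could not be told apart. *Igf1* and *Insr* overlap genes on the opposite strand but share no exonic base with them, and the remaining 6 genes overlap no other gene.

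The libraries held 23445687 to 30415773 counts each, at which 3 counts, the lowest level taken as detectable, came to 0.0986 to 0.128 CPM (counting error only). *Idh1*, the targeted gene, overlapped between the groups at 37.3, 39.1 and 65.4 CPM in controls and 47.6, 47.7 and 56.3 CPM in mutants, and total counts do not separate its alleles (log2 fold change 0.10, edgeR adjusted p = 0.94). Mutant 3 held 0 reads of 4 Y-linked genes that had 3871 to 5449 counts in the other libraries. Cartilage markers were present throughout, *Col2a1* at 1923 to 5245 CPM, but markers of neighbouring tissues were too, and none of the 10 marker lists had a gene at 0 in every library. Tendon and ligament markers summed to 2450 to 2606 CPM in controls and 1356 to 1575 CPM in mutants, erythroid markers to 544 to 1582 and 288 to 426 CPM, and osteoblast markers to 178 to 1141 and 1101 to 1780 CPM. Control 3 had the lowest summed chondrocyte, hypertrophic and osteoblast markers of the 6 libraries.

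Levels of different genes were compared per exon length, as RPKM, the CPM divided by the exon length in kilobases. By the mean over 6 libraries, *Igfbp7* had 279.9 RPKM and *Igfbp5* 247 RPKM, which placed them at ranks 124 and 139 of the 16813 tested genes. *Igfbp4* (164 RPKM) and *Igfbp3* (159 RPKM) followed at ranks 225 and 233. *Igfbp2* (55.5 RPKM), *Igfbp6* (48.4 RPKM) and *Igf1* (45.1 RPKM) formed a lower tier, above *Igf1r* (12.6 RPKM) and *Insr* (7.28 RPKM). Within single libraries, neighbours in this order were not always apart. The ratio of *Igfbp7* to *Igfbp5* RPKM ranged from 0.947 to 1.30, that of *Igfbp4* to *Igfbp3* from 0.884 to 1.11, that of *Igfbp2* to *Igfbp6* from 0.881 to 1.67 and that of *Igfbp6* to *Igf1* from 0.663 to 1.38. The order of these 4 pairs therefore changed between libraries. The steps from *Igfbp5* to *Igfbp4* (1.34 to 1.61), from *Igf1* to *Igf1r* (2.61 to 4.15) and from *Igf1r* to *Insr* (1.56 to 2.02) kept their direction in all 6 libraries.

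**Figure D1:**
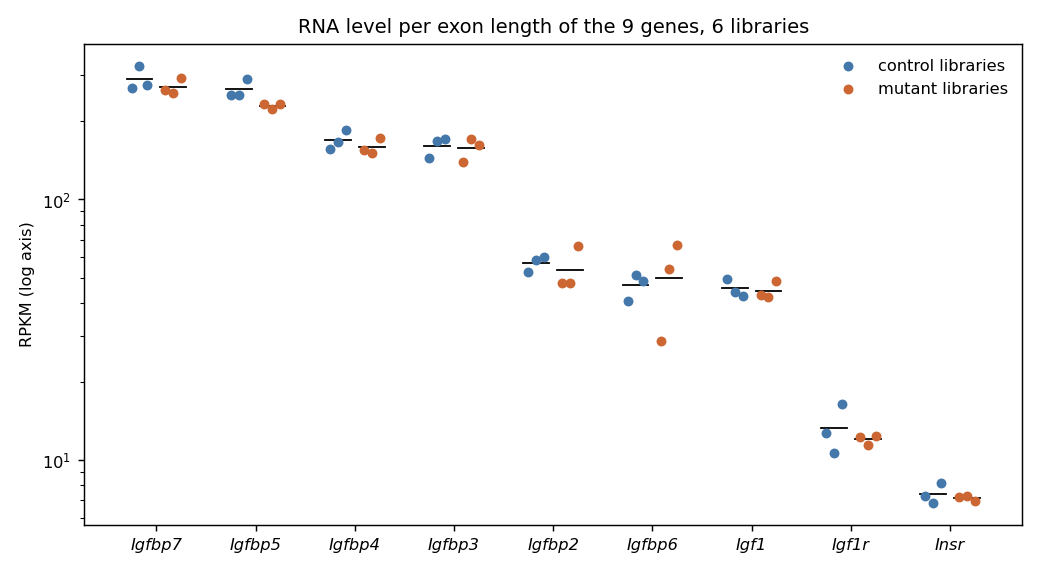
RNA level per exon length (RPKM, log axis) of the 9 genes in 3 control (blue) and 3 mutant (orange) libraries, with a line at each group mean. The binding protein genes lie above the receptors by a wide margin, from 279.9 RPKM for *Igfbp7* to 7.28 RPKM for *Insr*, and the points of the groups overlap in every gene but *Igfbp5*.

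Against this range of levels, the genotype differences were small. No member passed edgeR's quasi-likelihood test at an adjusted p under 0.05, a threshold that 0.19% of all tested genes passed. None had an unadjusted p under 0.05 in that edgeR fit of all 6 libraries either, against 8.64% of all tested genes. DESeq2 called none of the 9 genes and 1.15% of all tested genes, and limma-voom none of the 9 and 0.113%. The mean fitted level was lower in mutants for 8 members and higher for *Igfbp6* alone, while 8520 of the 16813 tested genes were lower. With a library left out, the sign changed for *Igf1*, *Igf1r*, *Insr*, *Igfbp3*, *Igfbp6* and *Igfbp7*. The median log2 fold change of the 9 genes was −0.09, against −0.0026 for all tested genes. That median was −0.01 without control 3 and −0.16 without mutant 3. *Igfbp5* was the only member whose control and mutant libraries did not overlap, 1 of 9, while 14.4% of all tested genes had groups that did not overlap in either direction. In bulk RNA, fewer cells that express a gene and less RNA per cell cannot be told apart, which holds for every difference given here.

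**Figure D2:**
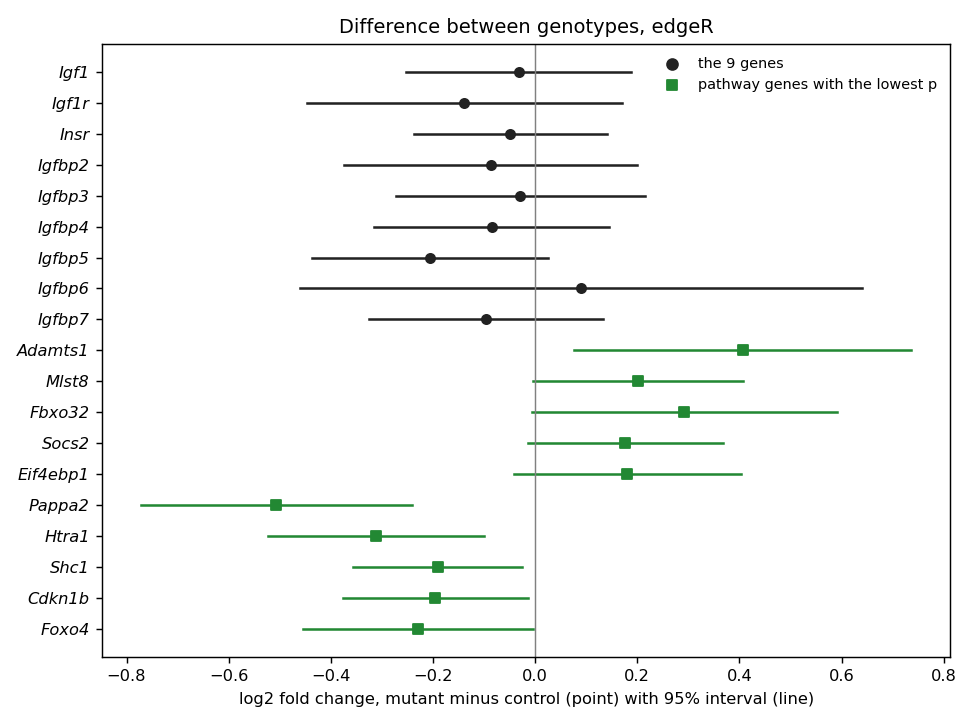
Log2 fold change between genotypes (mutant minus control) from edgeR with its 95% interval, for the 9 genes (black) and for the 5 genes of the pathway lists with the lowest p in each direction (green). The interval of each of the 9 genes includes 0, while before adjustment for the number of genes tested those of *Pappa2*, *Htra1*, *Shc1*, *Cdkn1b* and *Foxo4* lie below 0 and that of *Adamts1* lies above 0.

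*Igf1*, the ligand made locally and by the liver under growth hormone, had 492, 438 and 423 CPM in controls 1, 2 and 3 and 426, 417 and 481 CPM in mutants 1, 2 and 3. Control 1 and mutant 3 were the high libraries, and the groups overlapped over most of their range. The group means were 451 ± 36.3 and 441 ± 34.6 CPM (SD, n = 3 each), with a log2 fold change of −0.03 (95% interval −0.25 to 0.19, edgeR adjusted p = 0.963). The interval corresponds to a fold between 0.839 and 1.14. The other ligand gene, *Igf2*, was far more abundant, and was singled out after its values had been seen. *Igf2* had 44.1 to 58.2 times the RPKM of *Igf1*, with means of 51.4 ± 7.06 in controls and 49.97 ± 3.09 in mutants, so that the balance of the ligand RNAs differed by less than the spread between libraries. For each unit of *Igf1* RPKM there were 18.4 to 24.1 units of the 6 binding proteins together.

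*Igf1r*, which encodes the receptor that transmits both IGF signals, had 56.8, 47.9 and 73.6 CPM in controls and 55.1, 51.3 and 55.5 CPM in mutants. The controls enclosed the mutants, with control 3 the highest and control 2 the lowest of the 6 libraries. The coefficient of variation was 22.0% in controls and 4.32% in mutants, against medians of 8.39% and 6.44% over the 10022 tested genes with a mean of at least 10 CPM. The log2 fold change was −0.14 (95% interval −0.45 to 0.17, edgeR adjusted p = 0.853), and without control 3 it was 0.05.

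*Insr*, the insulin receptor gene, had 69.9, 65.8 and 78.3 CPM in controls and 69.4, 70.3 and 67.2 CPM in mutants. As for *Igf1r*, control 3 was the highest library and control 2 the lowest. Its log2 fold change of −0.05 had the narrowest interval of the 9 genes, from −0.24 to 0.14 (edgeR adjusted p = 0.931), a fold between 0.849 and 1.10. The ratio of *Igf1r* to *Insr* RPKM was 1.77 ± 0.229 in controls and 1.68 ± 0.106 in mutants, within the spread of either group. *Igf2r*, whose product takes up IGF2 without passing on a kinase signal, had 5.38 to 6.92 times the RPKM of *Igf1r* and was named after its values had been seen.

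Of the binding proteins, *Igfbp5* had the lowest p of the 9 genes. IGFBP5 binds extracellular matrix and is known from bone and cartilage. Its level was 1516, 1509 and 1741 CPM in controls and 1394, 1342 and 1395 CPM in mutants. Every mutant lay below every control, and control 3 stood above the other controls. The log2 fold change was −0.21 (standard error 0.10, 95% interval −0.44 to 0.02), with an unadjusted p of 0.0742 and an adjusted p of 0.636 in edgeR (rank 1963 by p of the 16813 tested genes). Without control 3 the log2 fold change was −0.13. The same libraries also separated by tendon and ligament markers, of which 5 of 5 were lower in every mutant than in every control (median log2 fold change −0.75). Erythroid markers were separated in the same direction in 4 of 5 genes, with a median of −1.37, and the part of either tissue in the *Igfbp5* difference was not tested.

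*Igfbp7* and *Igfbp4*, the other members near the top of the order by RPKM, differed less. *Igfbp7* had 323, 394 and 332 CPM in controls and 318, 309.8 and 353 CPM in mutants, with mutant 3 above 2 of the controls. Its log2 fold change was −0.10 (95% interval −0.33 to 0.13, edgeR adjusted p = 0.869). *Igfbp4*, whose product mostly restrains IGF action, had 691, 734 and 816 CPM in controls and 682, 667 and 763 CPM in mutants. Mutant 3 again lay among the controls. The log2 fold change of *Igfbp4* was −0.09 (95% interval −0.32 to 0.14, edgeR adjusted p = 0.886), and without control 3 it was −0.01.

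*Igfbp3* encodes the main IGF carrier of blood plasma. It had 453, 523 and 533 CPM in controls and 435, 535 and 508 CPM in mutants, and the lowest library of each group was replicate 1. Its log2 fold change was −0.03 (95% interval −0.27 to 0.21, edgeR adjusted p = 0.969), the largest adjusted p of the 9 genes. *Igfbp2*, which lies beside *Igfbp5* on chromosome 1, had 97.3, 108 and 111 CPM in controls and 88.0, 88.2 and 122 CPM in mutants. Mutants 1 and 2 were the lowest libraries and mutant 3 the highest. The log2 fold change of *Igfbp2* was −0.09 (95% interval −0.37 to 0.20, edgeR adjusted p = 0.912). It was −0.26 without mutant 3, −0.0069 without mutant 1 and −0.0033 without mutant 2.

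*Igfbp6*, whose product prefers IGF2 over IGF1, had 45.3, 57.0 and 54.3 CPM in controls and 31.7, 60.3 and 74.4 CPM in mutants. Mutant 1 was the lowest and mutant 3 the highest of the 6 libraries, so that the mutants enclosed the controls. The coefficient of variation was 39.2% in mutants and 11.8% in controls, the former the largest of the 9 genes in either group. The log2 fold change was 0.09 (95% interval −0.46 to 0.64, edgeR adjusted p = 0.959), the widest interval of the 9 genes. Its direction rested on mutant 3, the library without Y-linked reads, since the value was −0.18 without it. An indicator for that library also gave −0.18, but it marks mutant 3 alone and so amounts to leaving it out. Without control 1 it was −0.0045, and without mutant 1 it was 0.37. Fibroblast and perichondrium markers, led by *Col3a1*, summed to 21290, 23900 and 22630 CPM in controls and 19570, 23620 and 26670 CPM in mutants. Mutant 1 was again lowest and mutant 3 highest, and the part of these cells in the spread of *Igfbp6* was not tested.

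**Figure D3:**
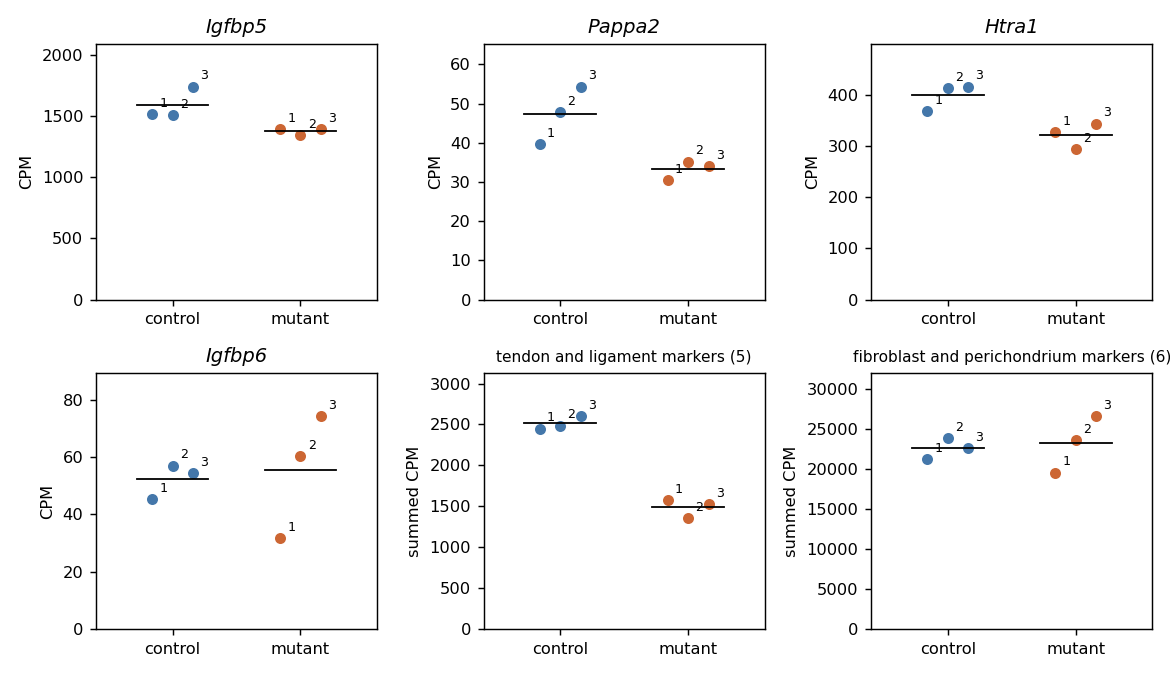
Levels (CPM, axes from 0) of *Igfbp5*, *Pappa2*, *Htra1* and *Igfbp6*, and summed CPM of 5 tendon and ligament and 6 fibroblast and perichondrium markers. Each numbered point is a library and each line a group mean. *Igfbp5*, *Pappa2*, *Htra1* and the tendon sum have no mutant point as high as a control point, while *Igfbp6* and the fibroblast sum overlap and are lowest in mutant 1 and highest in mutant 3.

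The position of single libraries recurred across the 9 genes. Control 3 was the highest control for 6 genes and the highest of all 6 libraries for 4, namely *Igf1r*, *Insr*, *Igfbp4* and *Igfbp5*. Mutant 3 was the highest mutant for 7 genes and mutant 2 the lowest mutant for 5. The members share libraries and are no replicates of the genotypes, so these counts describe the libraries.

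The make-up of the binding protein RNAs does not depend on how libraries are scaled to each other, and was therefore examined as a share of the summed RPKM of the 6 genes. *Igfbp7* accounted for 29.3 ± 2.62% in controls and 29.4 ± 1.04% in mutants (SD, n = 3 each). *Igfbp5* made up 27.6, 24.6 and 28.2% in controls and 26.8, 24.7 and 23.4% in mutants. On this scale, unlike in CPM, the groups overlapped for *Igfbp5*, since control 2 lay below mutants 1 and 2. *Igfbp4* held 17.1 ± 0.835% and 17.3 ± 0.578%, and *Igfbp3* 16.3 ± 0.371% and 17.1 ± 1.57%. *Igfbp2* held 5.79 ± 0.0527% and 5.81 ± 0.733%, and *Igfbp6* 4.74 ± 0.286% and 5.34 ± 1.81%. None of the 6 mean shares of RPKM differed between the groups by more than the larger SD. As a share of summed counts, which weights long transcripts more, *Igfbp5* made up 47.5 ± 1.81% in controls and 45.1 ± 1.97% in mutants, a difference of more than the larger SD, although the libraries of the groups overlapped there too. The summed RPKM was 988 ± 63.4 in controls and 920.4 ± 65.5 in mutants, and the groups overlapped.

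**Figure D4:**
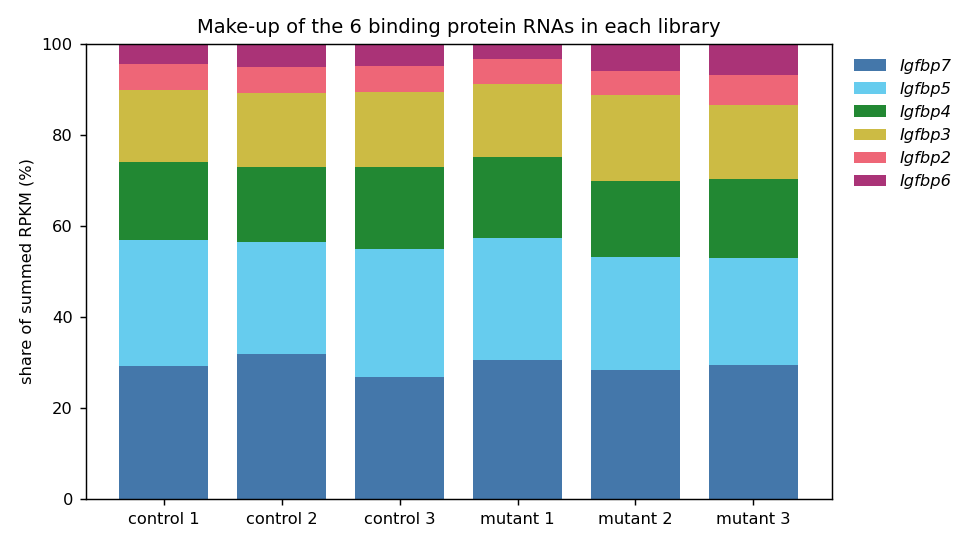
Share of each of the 6 binding protein RNAs in their summed RPKM (percent, stacked to 100) in each library. The stacks are alike: *Igfbp7* and *Igfbp5* fill the lower part with 26.7 to 31.9% and 23.4 to 28.2%, and *Igfbp6* is thinnest in mutant 1 at 3.30%.

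Other genes of the pathway were read from 8 lists of 86 genes, of which 82 were tested. None of the 82 passed edgeR at an adjusted p under 0.05, against 0.19% of all tested genes. An unadjusted edgeR p under 0.05 was found for 6 of the 82, 1 higher and 5 lower in mutants. Over all tested genes the share was 8.64%, with 623 higher and 829 lower, so the lists held no excess of low p. DESeq2 called 1 of the 82, *Pappa2*, against 1.15% of all tested genes, and limma-voom none, against 0.113%. The median log2 fold change was −0.02, with 38 genes higher and 44 lower, and the groups did not overlap for 11 genes (13.4%), close to the background of 14.4%.

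The 8 proteases of binding proteins and their inhibitors held the lowest p of all the lists. *Pappa2* encodes pappalysin 2, a protease known to cut IGFBP3 and IGFBP5. *Pappa2* had 39.7, 47.9 and 54.3 CPM in controls and 30.5, 35.2 and 34.2 CPM in mutants. Every mutant lay below every control, with a log2 fold change of −0.51 (standard error 0.12, 95% interval −0.77 to −0.24). Its unadjusted p was 0.00176 and its adjusted p 0.187 in edgeR, while DESeq2 gave the same log2 fold change an adjusted p of 0.0197. Among the other settings, only edgeR with no low-count filter also called it. *Htra1*, a secreted serine protease with IGFBP5 among its substrates, had 369, 413 and 416 CPM in controls and 327, 294 and 344 CPM in mutants. *Htra1* was also lower in each mutant (log2 fold change −0.31, standard error 0.095, edgeR unadjusted p = 0.0086, adjusted p = 0.374). *Adamts1*, an extracellular metalloprotease, was the gene on the other side, with 93.0, 80.2 and 88.7 CPM in controls and 122, 87.3 and 138 CPM in mutants. Mutant 2 lay among the controls (log2 fold change 0.41, edgeR unadjusted p = 0.0208, adjusted p = 0.47), and the log2 fold change was 0.26 without mutant 3 and 0.58 without mutant 2. Over the list 5 genes were higher and 3 lower, with a median of 0.07.

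The tendon and ligament and the erythroid markers given above were lower in the same libraries as *Pappa2* and *Htra1*, and their part in these values was not tested.

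Inside the cell, receptor substrates and adaptors (11 tested of 12) had a median log2 fold change of −0.10, with 3 genes higher and 8 lower. *Shc1*, an adaptor that leads from the receptor to Ras, had 146, 142 and 154 CPM in controls and 133, 129 and 126 CPM in mutants. The groups of *Shc1* did not overlap, and the log2 fold change was −0.19 (edgeR unadjusted p = 0.0281, adjusted p = 0.509). The PI3K, Akt and mTOR arm had 13 genes higher and 15 lower, none further from 0 than 0.20 on the log2 scale. The value furthest from 0 was that of *Mlst8*, a subunit of the mTOR complexes (log2 fold change 0.20, edgeR adjusted p = 0.59). *Eif4ebp1*, a translation repressor that mTOR inactivates, had a log2 fold change of 0.18 (edgeR adjusted p = 0.682), which was 0.09 without mutant 2 and 0.11 without control 1. In the Ras and MAP kinase arm 5 genes were higher and 6 lower, none beyond 0.14.

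Transcripts of FOXO factors, which insulin and IGF signals keep out of the nucleus, and of genes they are known to induce split into 7 higher and 6 lower, with a median of 0.00. *Fbxo32*, a ubiquitin ligase gene, had a log2 fold change of 0.29 (edgeR adjusted p = 0.596) and of 0.17 without mutant 1. *Cdkn1b*, a cell cycle inhibitor, had −0.20 (adjusted p = 0.54), and *Foxo4* itself −0.23 (adjusted p = 0.567), or −0.14 without mutant 3. On the growth hormone side, 4 of 5 genes were higher and 1 lower, with a median of 0.09. *Socs2*, a feedback inhibitor of growth hormone signalling, had 32.8, 30.3 and 29.5 CPM in controls and 35.9, 35.9 and 32.9 CPM in mutants. Its groups did not overlap, although mutant 3 and control 1 nearly met (log2 fold change 0.18, edgeR adjusted p = 0.626). The Igf2 mRNA binding proteins were lower in 3 of 3 genes (median −0.08). Of the other ligands, receptors and binding proteins, 3 of 6 could be tested, with 1 higher, 2 lower and a median of −0.07.

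The genes whose pattern over the 6 libraries was most like that of *Igfbp5* and *Igf1r*, the members with the lowest p, were sought among the 10022 genes with a mean of at least 10 CPM. Likeness was the root mean square difference of log2(CPM + 0.5), centred on each gene's mean. Nearest to *Igfbp5* were *Zfp316* (0.022), *Tub* (0.025) and *Emilin3* (0.027), where the pattern of *Igfbp5* itself had a root mean square of 0.12. *Emilin3*, a gene of an extracellular matrix glycoprotein, had 139, 136 and 154 CPM in controls and 127, 123 and 131 CPM in mutants, with control 3 highest as for *Igfbp5*. Nearest to *Igf1r* were *Irgq* (0.030), *Zhx2* (0.036) and *Celf2* (0.039), against 0.19 for *Igf1r* itself. *Celf2* had 67.3, 55.3 and 80.5 CPM in controls and 62.6, 60.1 and 65.5 CPM in mutants, so that controls 3 and 2 were again the extremes. The 6 libraries are few for such a search among many genes, and the likeness is a description only.

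**Figure D5:**
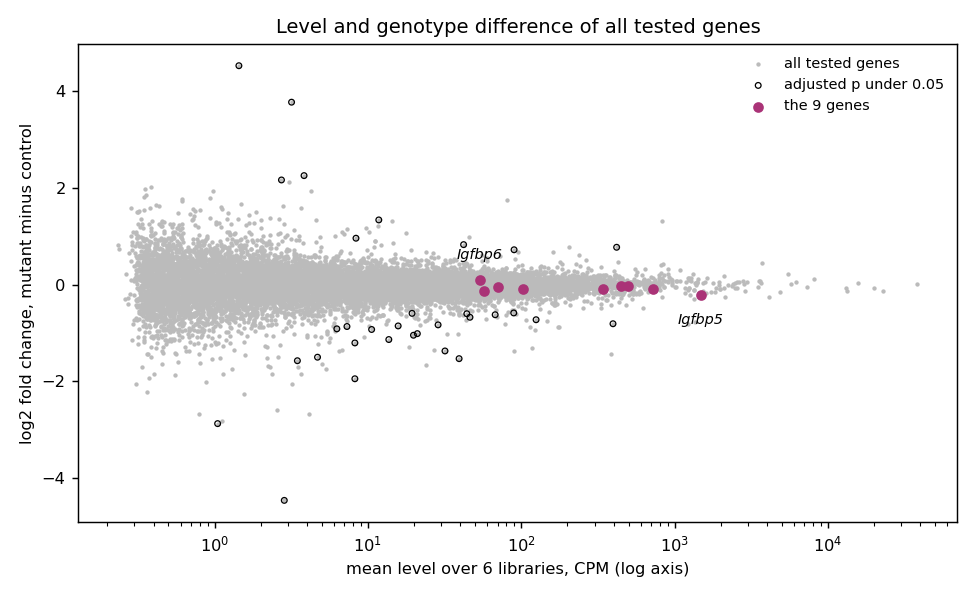
Log2 fold change (mutant minus control) against mean level (CPM, log axis) for the 16813 tested genes (grey), the 32 with an adjusted p under 0.05 (open circles) and the 9 IGF genes (filled). The 9 genes lie in the dense band around 0, from −0.21 for *Igfbp5* to 0.09 for *Igfbp6*.

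The remaining marker lists gave no separation of the groups in their sums apart from epidermis. Chondrocyte markers summed to 4993 to 8929 CPM in controls and 6950 to 9277 CPM in mutants, and prehypertrophic and hypertrophic markers to 200.4 to 686 and 444 to 711 CPM. Muscle markers summed to 12850 to 18880 and 12230 to 17870 CPM, endothelial markers to 719 to 749.6 and 724 to 818 CPM, and macrophage and osteoclast markers to 448 to 548 and 384 to 572 CPM. Epidermal markers were scarce, at 7.81 to 16.6 CPM in controls and 6.58 to 6.70 CPM in mutants. Of all marker genes, edgeR called *Tnmd* (tendon) and *Krt5* (epidermis), both lower in mutants, and their part in the values of the IGF genes was not tested.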

How the data were processed

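Growth plate cartilage RNA of 3 control and 3 Idh1 mutant samples (E18.5) had been captured on oligo-dT beads and made into strand-marked libraries. The values the authors deposited were whole-number counts per gene, not normalized. Reads had been trimmed (Trim Galore 0.6.4), mapped to GRCm38 (STAR 2.6.1d) and counted on exons with featureCounts 1.6.4 without strand, per the file headers and the submitters' processing notes. The authors' own test was DESeq2 1.28.1 with litter and genotype; litters were not used here because the labels do not give them. Groups came from the sample titles, and the number of per-sample columns not used was 0.

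From the counts, edgeR 4.0.16 (R 4.3.3) was run on all genes with filterByExpr (minimum count 10, minimum total 15), TMM factors, genotype as the only term and the quasi-likelihood test, with Benjamini-Hochberg adjustment over 16813 genes. CPM used TMM library sizes, and RPKM was CPM per kilobase of the exon length in the files. Alternatives were DESeq2 1.42.0, limma-voom (limma 3.58.1), upper-quartile factors, other filters, the replicate number as a block, an indicator of the library without Y-linked reads, and leaving out each library. Scripts were tested on simulated counts. Named were all 9 members, of the pathway lists any called gene and the 5 with the lowest p in each direction, the top gene of marker lists, and 3 genes of like pattern for each of the members with the 2 lowest p. The members and lists were chosen with earlier results of these data known. Start sites and promoters were from RefSeq (GRCm38.p6). Plots were made in Python 3.11.15 (matplotlib 3.10.9).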

Additional observations from a re-analysis of the deposited data

How the results depend on the processing

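None of the 9 genes was called under any of the 8 other settings or with any library left out, and the lowest adjusted p among them was 0.512 (*Igfbp5*). Before adjustment, the lowest p was 0.0268 for *Igfbp5* (DESeq2) and 0.0225 for *Igfbp2* (edgeR with the indicator of no Y-linked reads). It was 0.0459 for *Igf1r* (edgeR without control 2) and 0.0198 for *Igfbp6* (edgeR without mutant 1). For the other members it stayed above 0.05. The number of called genes among all those tested did depend on the setting: 32 in edgeR against 194 with DESeq2, 89 with DESeq2 and the replicate block, 3 with edgeR and the replicate block, 19 with limma-voom, 259 with no low-count filter, 6 with the indicator of no Y-linked reads, and 3 to 17 with a library left out. Pathway genes called numbered 0 in edgeR and 1 with DESeq2 or with no low-count filter, *Pappa2* both times. With the replicate block the adjusted p of *Pappa2* was 0.0826 in DESeq2, where the call was lost, and 0.284 in edgeR. The cause was not tested. Deviations of same-numbered libraries correlated at −0.127, 0.007 and −0.0953, so the numbers were not taken to pair samples. *Igfbp6* turned to −0.18 with the indicator, which marks mutant 3 alone and so is no separate check from leaving mutant 3 out. With a library left out, log2 fold changes ranged from −0.10 to 0.034 for *Igf1*, −0.27 to 0.047 for *Igf1r*, −0.10 to 0.026 for *Insr*, −0.10 to 0.053 for *Igfbp3*, −0.18 to 0.37 for *Igfbp6* and −0.16 to 0.0021 for *Igfbp7*, and from −0.26 to −0.0033 for *Igfbp2*, −0.15 to −0.01 for *Igfbp4* and −0.24 to −0.13 for *Igfbp5*. The median of the 9 genes ranged from −0.16 to −0.01. The 3 libraries a group limit what can be detected: the 95% interval of *Igfbp6* reaches a fold of 1.56.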
